A study of Mus musculus with 15 samples.

Results

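The 10 genes described here encode isoenzymes and transporters with which a cell takes up glucose, carries it down glycolysis and exchanges lactate. They were chosen by symbol: the glucose transporter Slc2a3, the hexokinases Hk1 and Hk2, the phosphofructokinases Pfkm and Pfkp, the pyruvate kinase Pkm, the lactate dehydrogenases Ldha and Ldhb, and the monocarboxylate transporters Slc16a1 and Slc16a7. All 10 are among the 18536 genes with a value in the table, and all 10 were among the 16723 genes tested.

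Transcripts were measured by RNA sequencing in 15 libraries of mouse auditory nerve, 3 at each of 5 ages: postnatal day 3 (P3), day 7 (P7), day 14 (P14), day 21 (P21) and adult. Each library came from 1 mouse, with the nerve microdissected from both of its cochleae. The labels describe no treatment, no genotype and no strain, and they give neither sex nor the age of the adult mice in days, whose columns are headed CTRL. Age is thus the only factor that the labels name, and a batch that followed age could not be told apart from it. The p-values weigh a change against the spread between mice of the same age, pooled over the ages.

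Glycolysis splits glucose into pyruvate, and most of its steps can be run by any of several isoenzymes encoded by separate genes. Hexokinase 1 and the B subunit of lactate dehydrogenase are the typical forms of adult neurons, whereas hexokinase 2 and the A subunit are typical of growing and of glycolytic cells. The A subunit favours the making of lactate from pyruvate, and the B subunit favours its use. In the lactate shuttle described for myelinated nerve, glial cells release lactate through the transporter MCT1, encoded by Slc16a1, and axons take it up through MCT2, encoded by Slc16a7.

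Values are normalized read counts, that is, each gene's reads scaled by a library's size factor. Depth was even, with 35250155 to 42258738 reads recovered per library, so that 1 read was worth 0.843 to 1.22 and a floor of 3 reads lay between 2.53 and 3.65. The lowest value of any member, 100.8 for Slc16a7 in P21 replicate 3, was far above that floor, and it covers counting error only. All 12 spiral ganglion neuron markers and all 11 Schwann cell markers were above the floor in every library, but so were all 8 bone, all 7 fibroblast, all 7 macrophage and all 9 cochlear epithelium and fibrocyte markers. At P3 the bone and fibroblast marker sums, 222816 to 390587 and 452287 to 648544, were above that of the neuron markers. Counts of Eif2s3y, a Y-linked gene, were low in adult replicate 3, in P14 replicate 1, in P21 replicate 1 and in P21 replicate 2, so the ages differ in how many such libraries they hold. These are called the 4 Eif2s3y-low libraries, and results that move without them are given both ways. Without them P21 holds 1 library, so comparisons with P21 then rest on its replicate 3.

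From P3 to adult the members separated into 3 behaviours. Slc2a3, Hk1, Pfkm, Pfkp, Pkm and Ldhb rose, by 2.45-fold to 3.87-fold. Hk2, Ldha and Slc16a7 fell, by 2.15-fold to 3.34-fold. Slc16a1 was 1.19-fold higher in adult and was not called. Across all genes tested 68.7% were called between P3 and adult (34.4% higher and 34.3% lower in adult), against 9 of the 10 members. The median size of the change was 1.51 on the log2 scale for the members and 0.66 for all genes tested. The members were chosen with earlier results of these data known. Comparisons of members with all genes, here and below, are therefore descriptions only. The libraries of P3 and adult did not overlap for any of the 10 members, nor for 76.4% of all genes tested. A change was called where limma gave an adjusted p (Benjamini-Hochberg) under 0.05, fitted to log2(value + 1) over all 16723 genes, and the words rose and fell are used for called changes.

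The changes fell unevenly over the 4 steps between neighbouring ages, as the plot of changes between ages shows. From P7 to P14, 6 members rose and 2 fell, with 48.1% of all genes called (24.3% higher and 23.8% lower at P14), and the libraries of 8 members did not overlap (61.4% of all genes). The median size of the change in that step was 0.79 on the log2 scale for the members and 0.39 for all genes. From P3 to P7, 2 members rose and 1 fell, with 28.1% of all genes called (15.4% higher and 12.8% lower at P7), and 6 did not overlap (54.2% of all genes). From P21 to adult, 4 rose and 2 fell, with 49.4% of all genes called (25.4% higher and 24.1% lower in adult), and 7 did not overlap (56.1% of all genes). From P14 to P21 no member was called by limma, by edgeR or by DESeq2, with 9.29% of all genes called by limma (3.29% higher at P21). In that step 3 members had an unadjusted p under 0.05, and the libraries of 2 did not overlap (24.4% of all genes). Tested over all 5 ages jointly, all 10 members differed, as did 85.4% of all genes. Neighbouring comparisons share the libraries of 1 age, so their values are not independent of each other.

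**Figure D1:**
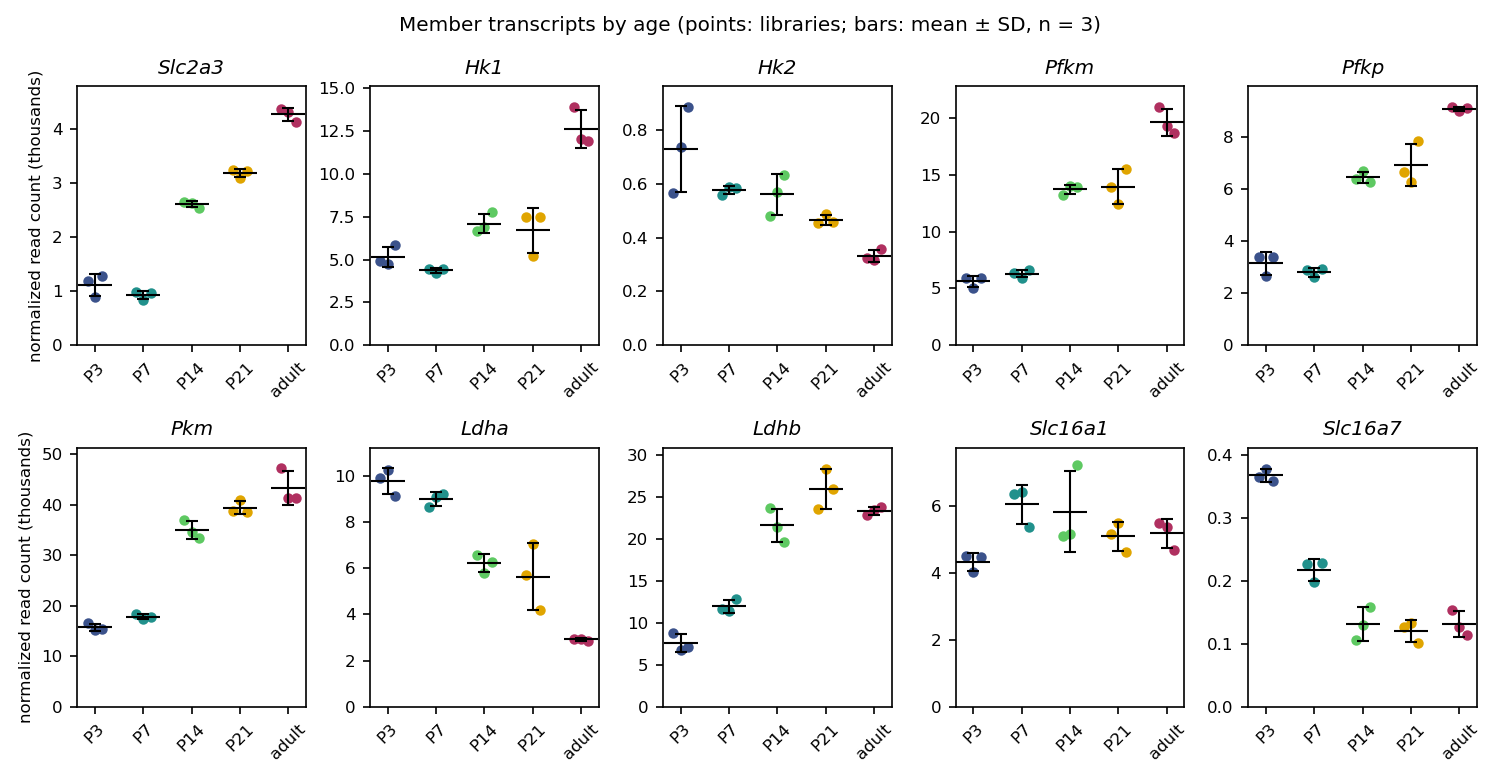
Normalized read count divided by 1000 (vertical axes, which differ between panels and start at 0) of each of the 10 members at P3, P7, P14, P21 and adult. Points are libraries and bars are the mean ± SD of 3 mice. The 6 panels of Slc2a3, Hk1, Pfkm, Pfkp, Pkm and Ldhb climb, those of Hk2, Ldha and Slc16a7 descend, and that of Slc16a1 is highest at P7 and P14.

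Several marker lists moved with these genes, and their part in the members' changes was not tested. The summed count of the 12 neuron markers ranged from 69352 to 104870 at P3 and from 552865 to 563725 in adult, and 9 of the 12 rose while 0 fell. Of 11 Schwann cell markers 9 rose, with sums of 215073 to 326493 at P3, 973857 to 1521406 at P14 and 456191 to 533796 in adult. Markers of dividing cells (8 of 8), osteoblasts and bone (8 of 8), fibroblasts (7 of 7), osteoclasts (7 of 7) and macrophages (6 of 7) fell from P3 to adult. Of 11 oligodendrocyte markers 7 rose (sums of 13420 to 17086 at P3 and 22086 to 28096 in adult), and of 8 astrocyte markers 5 rose (23020 to 44459 and 95701 to 99129). The myelin gene Mag is counted in both the Schwann cell and the oligodendrocyte list. Of 8 erythroid markers 6 fell from P3 to adult, with sums of 27262 to 62140 at P21 and 9922 to 12110 in adult. The cochlear epithelium and fibrocyte markers summed to 133020 to 158380 at P3, 780523 to 1108914 at P21 and 345623 to 555974 in adult. The sums of the dividing-cell markers went from between 13359 and 15117 at P3 to between 1355 and 1447 in adult. In whole tissue, fewer cells of a type and less RNA per cell cannot be told apart.

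Slc2a3 encodes GLUT3, the high-affinity glucose transporter typical of neurons. It lies at chr6:122727809-122742745 on the minus strand (build mm10). Its normalized counts were 1178, 894 and 1270 at P3, 983, 833 and 965 at P7, 2637, 2630 and 2544 at P14, 3240, 3088 and 3215 at P21, and 4360, 4304 and 4133 in adult. P3 and P7 overlapped, and from P14 on every library of an age lay above every library of the age before. The step from P7 to P14 was the largest of the 4, 1.49 ± 0.11 on the log2 scale (SE, limma adjusted p = 1.82e-07). Over the whole course Slc2a3 rose 3.87-fold, a log2 change of 1.95 ± 0.11 (limma adjusted p = 2.70e-09) and the largest rise among the 10 members. Its rise from P21 to adult, 0.42 ± 0.11 (limma adjusted p = 0.006), was 0.43 without the 4 Eif2s3y-low libraries, which leaves P21 with 1 library.

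Slc2a1, which encodes GLUT1, the transporter of vessels and glia and no member here, was set beside it. Its counts were 2791, 2095 and 2032 at P3, 2631, 2815 and 3039 at P7, 4720, 6114 and 5472 at P14, 5817, 5304 and 6537 at P21, and 6935, 7977 and 6876 in adult. It rose 3.17-fold from P3 to adult (log2 change 1.67 ± 0.13, limma adjusted p = 8.32e-08). Per kilobase of transcript, Slc2a3 made up 28.6% ± 4.67 of the 2 transporters' counts at P3, 21.3% ± 2.03 at P7 and 32.7% ± 1.72 in adult (SD, n = 3), so Slc2a1 was the more abundant at these ages.

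The hexokinases, which trap glucose in the cell as glucose 6-phosphate, moved in opposite directions. Hk1 (chr10:62268855-62379908, minus strand) encodes the constitutive form that binds to mitochondria in brain. Its counts were 4913, 4750 and 5837 at P3, 4454, 4220 and 4460 at P7, 6662, 6905 and 7757 at P14, 7502, 5190 and 7465 at P21, and 13936, 12054 and 11924 in adult. The 3 adult libraries stood well above all others, whereas P21 replicate 2 lay within the range of P3. Hk1 rose 0.70 ± 0.13 on the log2 scale from P7 to P14 (limma adjusted p = 0.00066) and 0.93 ± 0.13 from P21 to adult (limma adjusted p = 0.000239). Of the 10 members, Hk1 had the largest rise from P21 to adult, and over the whole course it rose 2.45-fold (limma adjusted p = 1.08e-06).

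Hk2 (chr6:82725027-82774454, minus strand) encodes the inducible form found in muscle, fat and growing cells. Its counts were 565.5, 738.3 and 885.2 at P3, 560.4, 587.8 and 583.2 at P7, 480.7, 569.4 and 633.2 at P14, 453.8, 487.3 and 458.9 at P21, and 325.7, 316.1 and 357.3 in adult. Neighbouring ages from P3 to P21 overlapped, and only the adult libraries lay below all libraries of the age before. The fall from P21 to adult, -0.49 ± 0.14 on the log2 scale (limma adjusted p = 0.0127), was the only step called. Without the 4 Eif2s3y-low libraries, which leaves P21 with 1 library, it was -0.515. Adult Hk2 was below P3 by 2.15-fold (log2 change -1.11 ± 0.14, limma adjusted p = 1.03e-05). The ratio of Hk1 to Hk2 counts went from 7.24 ± 1.26 at P3 to 14.5 ± 3.32 at P21 and 38.1 ± 4.71 in adult (SD, n = 3). Per kilobase, Hk1 made up 91.1% ± 1.30 of the 2 hexokinases' counts at P3 and 98.2% ± 0.223 in adult.

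Because Hk1 and Hk2, and Ldha and Ldhb, moved in opposite directions, the 250 bases before each of these 4 gene starts are printed here from RefSeq (build GRCm38.p6), 5′ to 3′ on the gene's strand. Capitals mark ACGTG or GCGTG on either strand, the core letters bound by hypoxia-inducible factors. The windows are chr10:62379909-62380158 (minus strand) for Hk1, chr6:82774455-82774704 (minus) for Hk2, chr7:46845554-46845803 (plus) for Ldha and chr6:142507958-142508207 (minus) for Ldhb.
Hk1: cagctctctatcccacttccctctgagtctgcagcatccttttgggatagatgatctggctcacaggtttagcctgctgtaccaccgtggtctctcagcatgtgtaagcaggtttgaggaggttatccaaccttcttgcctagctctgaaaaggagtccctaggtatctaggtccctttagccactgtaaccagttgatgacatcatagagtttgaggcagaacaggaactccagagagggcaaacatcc
Hk2: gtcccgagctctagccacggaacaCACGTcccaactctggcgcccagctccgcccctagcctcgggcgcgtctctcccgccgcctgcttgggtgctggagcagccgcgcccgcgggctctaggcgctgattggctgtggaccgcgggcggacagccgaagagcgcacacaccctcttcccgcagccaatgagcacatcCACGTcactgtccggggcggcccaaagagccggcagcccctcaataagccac
Ldha: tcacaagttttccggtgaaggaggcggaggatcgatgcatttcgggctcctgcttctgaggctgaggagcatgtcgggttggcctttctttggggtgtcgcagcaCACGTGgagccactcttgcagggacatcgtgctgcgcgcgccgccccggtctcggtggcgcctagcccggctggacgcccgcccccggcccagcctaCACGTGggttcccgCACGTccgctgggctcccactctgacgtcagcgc
Ldhb: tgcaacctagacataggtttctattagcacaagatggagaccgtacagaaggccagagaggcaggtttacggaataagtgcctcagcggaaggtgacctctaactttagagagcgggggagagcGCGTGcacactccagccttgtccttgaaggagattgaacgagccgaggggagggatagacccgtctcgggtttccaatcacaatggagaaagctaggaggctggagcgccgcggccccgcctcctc
The Ldha window held 5 matches to ACGTG. Of these, 4 formed 2 palindromes CACGTG, read once on each strand, that start at bases -145 and -48, and 1 starts at base -34, counted from -1 just before the gene start. The Hk2 window held ACGTG at bases -226 and -52, and the Ldhb window held 1 GCGTG, at base -126. Neither set of letters is in the Hk1 window. RefSeq gave 2 windows for Hk1, 2 for Ldha and 4 for Pfkm, and only the one at the gene start used here was searched. The absence in Hk1 therefore covers that start alone. Of 32851 windows of the same length, 16.6% held ACGTG, 28.2% held GCGTG and 6.02% held CACGTG on either strand, and a CACGTG counts as ACGTG too. The windows of the other matched members also held these letters: Pfkm, which rose, held ACGTG on both strands at 1 CACGTG, Pfkp, which rose, held 3 GCGTG, and Slc16a1, not called from P3 to adult, held ACGTG on both strands at 1 CACGTG and 2 GCGTG. Matches thus occurred among members that rose as well as among those that fell. GC content was 36.4% for Pfkm, 49.6% for Hk1, 56.4% for Ldhb, 62.8% for Pfkp, 67.2% for Ldha, 69.6% for Hk2 and 76.4% for Slc16a1, against a median of 52.4% over all windows. These matches describe the letters only. RefSeq windows starting at the gene start were matched for 7 of the 10 members.

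Phosphofructokinase commits sugar to glycolysis and works as a tetramer of muscle (Pfkm), platelet (Pfkp) and liver (Pfkl) subunits. Pfkm (chr15:98092589-98132447, plus strand) had counts of 5910, 5067 and 5885 at P3, 6359, 5961 and 6617 at P7, 13251, 13986 and 13938 at P14, 13896, 12475 and 15523 at P21, and 20943, 19286 and 18658 in adult. It stood at 3 levels, P3 and P7 low, P14 and P21 overlapping in the middle, and adult above both. It rose 1.12 ± 0.09 on the log2 scale from P7 to P14 (limma adjusted p = 4.00e-07), 0.50 ± 0.09 from P21 to adult (limma adjusted p = 0.000834) and 3.50-fold in all from P3 to adult (limma adjusted p = 9.53e-10).

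Pfkp (chr13:6579874-6648771, minus strand) had counts of 3385, 2652 and 3397 at P3, 2885, 2615 and 2939 at P7, 6385, 6702 and 6279 at P14, 6660, 6294 and 7848 at P21, and 9149, 9016 and 9121 in adult. It followed the same 3 levels, with P3 and P7 overlapping and P14 and P21 overlapping. It rose 1.20 ± 0.10 on the log2 scale from P7 to P14 (limma adjusted p = 6.80e-07) and 2.91-fold from P3 to adult (limma adjusted p = 1.38e-08). Its rise from P21 to adult, 0.40 ± 0.10 (limma adjusted p = 0.00596), was 0.22 and not called after quantile normalization (adjusted p = 0.0909). Without the 4 Eif2s3y-low libraries, which leaves P21 with 1 library, it was 0.21.

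The ratio of Pfkm to Pfkp counts stayed between 1.80 ± 0.0993 at P3 and 2.25 ± 0.0382 at P7 (SD, n = 3), with 2.16 ± 0.123 in adult, and per kilobase Pfkm made up 72.1% to 76.4% of the 2. Pfkl, the third subunit and no member, ranged from 3536 to 4942 over the 15 libraries, and its log2 change from P3 to adult was 0.11 ± 0.08 (limma adjusted p = 0.217). It rose from P7 to P14 by 0.31 ± 0.08 (limma adjusted p = 0.00506), and it differed over all 5 ages jointly (limma adjusted p = 0.00839). Pfkm is also the subunit of skeletal muscle, whose 11 markers without Pvalb summed to 222 to 343 at P3, 685 to 1023 at P7 and 501 to 525 in adult. Myl1 was the highest of them at these ages. Of the 10 tested, 2 rose and 1 fell from P3 to adult, with a median log2 change of -0.555. Of the 11 markers, 7 were above the floor of 3 reads in every adult library, and Ckm and Tnnc2 were under it in all 3. The part of muscle in the Pfkm values was not tested. Pvalb was left out of that sum because neurons also make it.

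Pkm (chr9:59656368-59679375, plus strand) encodes pyruvate kinase, the last step of glycolysis. Its counts were 16534, 15168 and 15341 at P3, 18311, 17363 and 17848 at P7, 36952, 34662 and 33442 at P14, 38679, 40979 and 38602 at P21, and 47246, 41408 and 41254 in adult. Each age lay above the one before with no overlap, which held for no other member. The step from P7 to P14 was 0.97 ± 0.07 on the log2 scale (limma adjusted p = 2.14e-07), and it was the only neighbouring step called, although the step from P14 to P21 was called after quantile normalization (0.28, adjusted p = 0.0415). Between P3 and adult Pkm rose 2.76-fold (log2 change 1.46 ± 0.07, limma adjusted p = 9.17e-10).

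Splicing gives 2 products from Pkm, PKM1 of mature tissue and PKM2 of growing tissue, and a count per gene does not separate them. Ptbp1, an RNA-binding protein that favours the PKM2 exon, fell 2.69-fold from P3 to adult, from 10734, 12164 and 11110 to 3867, 4262 and 4529 (log2 change -1.43 ± 0.08, limma adjusted p = 2.67e-09). Of that, -0.94 ± 0.08 came between P7 and P14 (limma adjusted p = 6.41e-07), the same step as the rise of Pkm. In that step 48.1% of all genes were called, and a link between Ptbp1 and Pkm was not tested.

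The lactate dehydrogenases moved in opposite directions. Ldha (chr7:46845804-46855627, plus strand) had counts of 9903, 10243 and 9144 at P3, 8652, 9090 and 9237 at P7, 6576, 5804 and 6274 at P14, 5687, 7054 and 4186 at P21, and 2951, 2940 and 2860 in adult. P3 and P7 overlapped, P14 and P21 overlapped, and the adult libraries lay below all others. P21 replicate 2 was higher, and P21 replicate 3 lower, than any P14 library. Ldha fell by 0.53 ± 0.14 on the log2 scale from P7 to P14 (limma adjusted p = 0.00534) and by 0.92 ± 0.14 from P21 to adult (limma adjusted p = 0.000303). Its fall from P3 to adult, 3.34-fold (log2 change -1.74 ± 0.14, limma adjusted p = 8.27e-08), was the largest among the members.

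The step of Ldha from P14 to P21, -0.17 ± 0.14 and not called (limma adjusted p = 0.465), turned on single libraries. It was -0.35 and called without P21 replicate 2 (adjusted p = 0.0487), and 0.03 without P21 replicate 3. Without the 4 Eif2s3y-low libraries it was -0.53, with P21 then resting on replicate 3 alone, the lowest of that age. The later step from P21 to adult was called without P21 replicate 2 and without P21 replicate 3, and was -0.51 without the 4 libraries. Processed pseudogenes of Ldha are annotated, and reads shared with them cannot be told apart here.

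Ldhb (chr6:142490249-142507957, minus strand) had counts of 8841, 6820 and 7159 at P3, 11682, 11405 and 12850 at P7, 23695, 21468 and 19712 at P14, 23607, 28350 and 26019 at P21, and 22876, 23494 and 23800 in adult. Of the 6 rising members it alone was called from P3 to P7, with P7 above every P3 library and P14 above every P7 library, after which P14 and adult overlapped and adult and P21 overlapped. It rose 0.66 ± 0.10 on the log2 scale from P3 to P7 (limma adjusted p = 0.000587) and 0.85 ± 0.10 from P7 to P14 (limma adjusted p = 1.81e-05). Pkm, with 0.19 ± 0.07 from P3 to P7 (limma adjusted p = 0.0649), was called there in DESeq2 (adjusted p = 0.0218). From P21 to adult the log2 change of Ldhb was -0.15 ± 0.10 and not called, and after quantile normalization it was -0.33 and called (adjusted p = 0.0266). Over all ages Ldhb rose 3.09-fold from P3 to adult (log2 change 1.63 ± 0.10, limma adjusted p = 1.08e-08).

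The ratio of Ldhb to Ldha counts went from 0.781 ± 0.114 at P3 to 1.33 ± 0.0700 at P7, 3.48 ± 0.298 at P14, 4.80 ± 1.23 at P21 and 8.02 ± 0.287 in adult (SD, n = 3). The 3 libraries of each age lay above all libraries of the age before. Per kilobase of transcript, Ldhb made up 51.2% ± 3.67 of the 2 subunits' transcripts at P3 and 91.6% ± 0.275 in adult. On the log2 scale the ratio changed by 3.37 from P3 to adult, the largest change of the 5 isoform ratios computed, ahead of 2.40 for Hk1 over Hk2. The largest part of it, 1.38, came between P7 and P14.

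**Figure D2:**
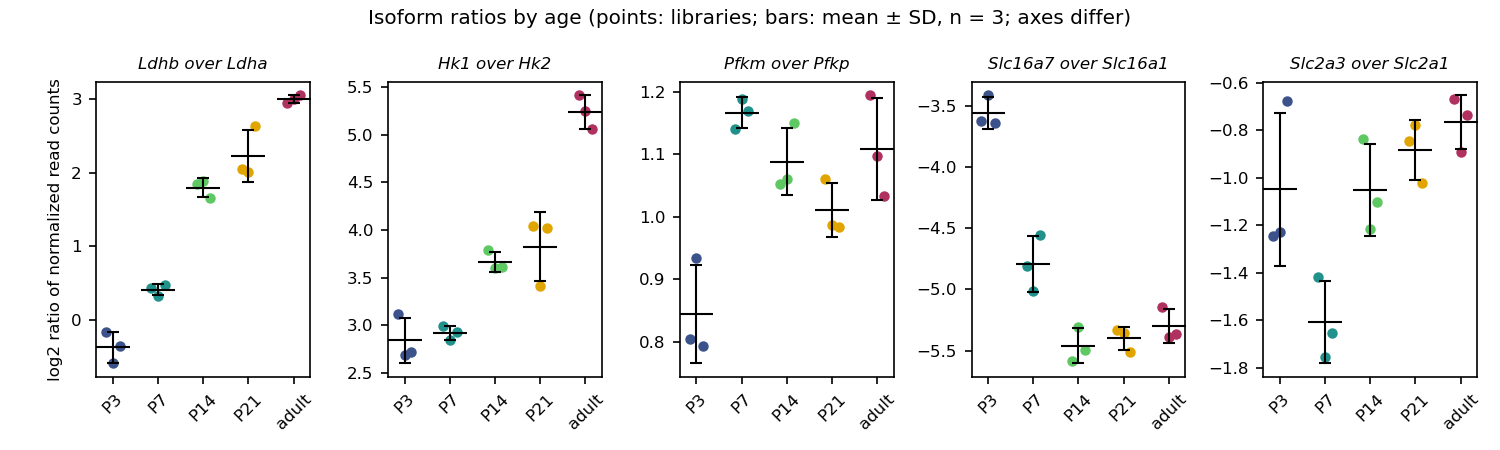
Log2 ratio of normalized read counts (vertical axes, which differ between panels) for 5 pairs of transcripts at the 5 ages. Points are libraries and bars are the mean ± SD of 3 mice. Ldhb over Ldha climbs from -0.37 to 3.00, Hk1 over Hk2 climbs mainly at the last step, Pfkm over Pfkp stays near 1, and Slc16a7 over Slc16a1 drops between P3 and P14.

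Slc16a1 (chr3:104638664-104658462, plus strand) had counts of 4512, 4025 and 4474 at P3, 6359, 6413 and 5376 at P7, 5098, 5157 and 7217 at P14, 5162, 5480 and 4630 at P21, and 5477, 5369 and 4690 in adult. All 3 libraries of P3 were below all later ones, and the 4 later ages overlapped their neighbours in level. It rose 0.48 ± 0.13 on the log2 scale from P3 to P7 (limma adjusted p = 0.0139), which was not called without P3 replicate 2 (0.42, adjusted p = 0.0566), without P7 replicate 4 (0.44, adjusted p = 0.0554) or without P7 replicate 5 (0.43, adjusted p = 0.0581). Its log2 change from P3 to adult was 0.25 ± 0.13 (limma adjusted p = 0.0905). It was called without P14 replicate 3 (adjusted p = 0.0268) and with only P3 and adult in the fit (adjusted p = 0.0243). Of the 10 members, Slc16a1 was the least changed over all 5 ages, with a largest difference of 0.48 between age means (joint limma adjusted p = 0.0253).

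The highest Slc16a1 value of all, 7217 in P14 replicate 3, came from the library with the highest Schwann cell marker sum, 1521406 against 973857 and 1035894 in the other P14 libraries. Its oligodendrocyte marker sum was 72105, against 14887 and 25739. Mag is in both lists and was the highest oligodendrocyte marker at P7 and P14, so these sums are not independent. The lowest P7 value, 5376 in P7 replicate 6, came from the library with the lowest oligodendrocyte sum of that age, 22451 against 34794 and 45699, and with the highest Schwann cell sum, 941048. The part of these markers in the Slc16a1 values was not tested.

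Slc16a7 (chr10:125227485-125328535, minus strand), the neuronal transporter of the shuttle, had counts of 364.9, 377.7 and 357.8 at P3, 225.9, 197.5 and 227.3 at P7, 105.5, 129.6 and 158.8 at P14, 127.2, 132.6 and 100.8 at P21, and 154.0, 126.9 and 113.0 in adult. P3 lay above P7 and P7 above P14 with no overlap, and the last 3 ages overlapped. Slc16a7 fell by 0.76 ± 0.17 on the log2 scale from P3 to P7 (limma adjusted p = 0.00593) and by 0.74 ± 0.17 from P7 to P14 (limma adjusted p = 0.00307). Over the same step from P7 to P14 the neuron markers had a median log2 change of 1.86. Other medians above 0 were 0.56 (erythroid), 0.48 (Schwann cell), 0.23 (endothelial), 0.21 (astrocyte) and 0.06 (oligodendrocyte). Those below 0 were -5.76 (osteoclast), -2.15 (dividing cells), -0.94 (bone), -0.70 (macrophage), -0.57 (fibroblast), -0.47 (cochlear epithelium and fibrocyte) and -0.36 (skeletal muscle). The part of these markers in the Slc16a7 values was not tested. Between P3 and adult Slc16a7 fell 2.80-fold (log2 change -1.49 ± 0.17, limma adjusted p = 3.77e-06). Per kilobase it made up 13.4% ± 1.06 of the 2 transporters' counts at P3 and 4.42% ± 0.412 in adult (SD, n = 3).

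Slc16a3, which encodes MCT4, the lactate exporter of glycolytic cells and no member, fell 3.22-fold from P3 to adult (log2 change -1.69 ± 0.30, limma adjusted p = 0.000196). Its counts were between 168.6 and 363.1 in the 6 libraries of P3 and P7 and between 62.34 and 149.7 in the 9 later ones. Bsg, the chaperone that brings MCT1 and MCT4 to the cell surface, had counts of 27582, 22496 and 21636 at P3 and 20893, 20854 and 21541 in adult. Bsg fell between P21 and adult (log2 change -0.57 ± 0.11, limma adjusted p = 0.00163), a step in which Slc16a1 changed by 0.03 ± 0.13 and was not called.

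**Figure D3:**
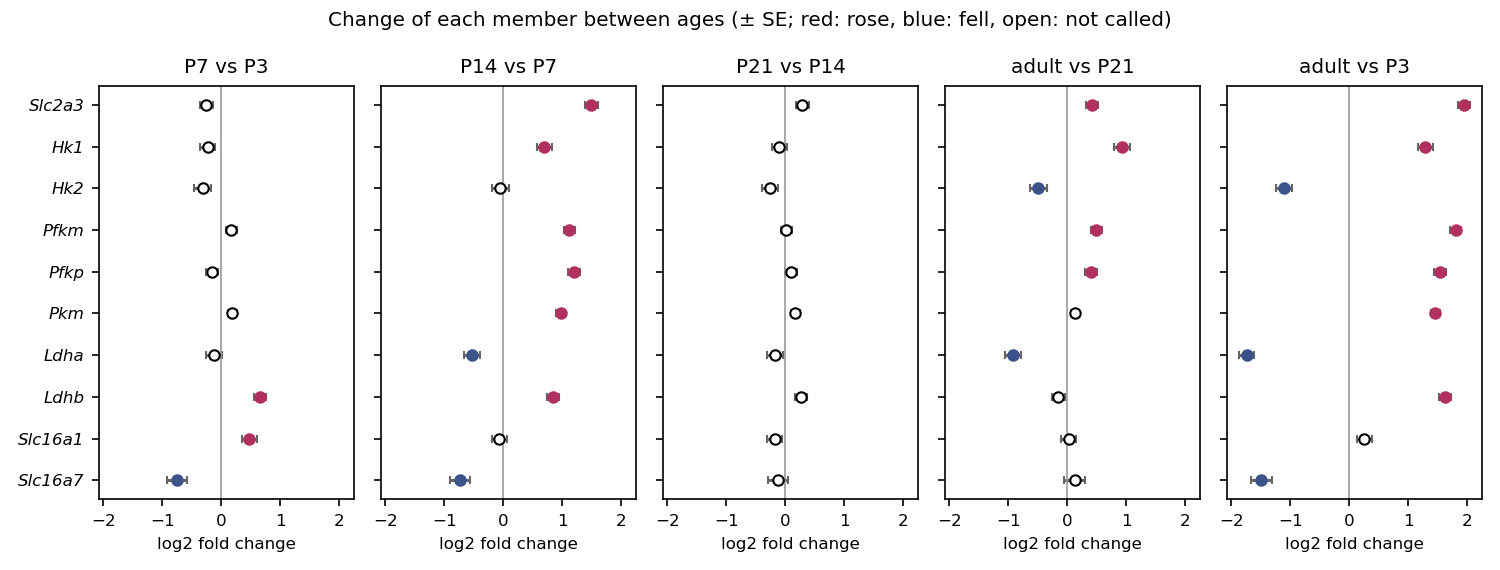
Log2 fold change ± SE (horizontal axes) of each of the 10 members (rows) in the comparisons of 2 ages, from limma over all 15 libraries. Red points rose, blue points fell and open points were not called. The step from P7 to P14 holds 8 called members, and the step from P14 to P21 holds 0.

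Compared per kilobase of transcript, which allows levels of different genes to be set side by side, Pkm and Ldhb led the 10 members from P3 on. Other glycolytic genes were not ranked. Pkm was first at P3 with 6448 ± 306 normalized counts per kilobase, ahead of Ldhb with 5833 ± 830 and Ldha with 5528 ± 319 (SD, n = 3). The spread of Ldhb overlapped those of both others. From P7 on Ldhb was first and Pkm second. In adult they stood at 17937 ± 361 and 17805 ± 1405, which did not differ beyond their spread, followed by Pfkm with 6818 ± 410. Ldha went from rank 3 at P3 to rank 6 in adult, with 1652 ± 28.3. Hk2 and Slc16a7 were the lowest pair at every age, with 60.4 ± 3.91 and 54.3 ± 8.62 in adult. Lengths come from 1 annotated transcript per gene, so a change in transcript use would shift these levels.

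In 1 library of P21, replicate 2, every member was either the lowest or the highest of that age. How many of all genes were placed likewise was not counted. Over the whole library, the chi-square of its read counts per degree of freedom was 92.9 against replicate 1 and 116.8 against replicate 3. Between replicates 1 and 3 that value was 28.4, so replicate 2 stood apart as a whole and not in the members alone. P21 replicate 2 was lowest for Slc2a3, Hk1, Pfkm and Pfkp, and highest for Hk2, Pkm, Ldha, Ldhb, Slc16a1 and Slc16a7. Some gaps were small, as for Slc2a3, with 3088 against 3240 and 3215. It also had the highest P21 sums of Schwann cell (834004), cochlear epithelium and fibrocyte (1108914), erythroid (62140), astrocyte (149227) and oligodendrocyte markers (38539). The same held for osteoclast markers (1911) and for muscle markers without Pvalb (741). Its sums of bone (21896), fibroblast (109277), macrophage (5444) and endothelial markers (10485) were the lowest of P21. The part of these markers in its member values was not tested. Without P21 replicate 2 the log2 change of Hk1 from P14 to P21 was 0.08 in place of -0.10, neither of them called. The rise of Hk1 from P21 to adult was 0.75 without it and remained called.

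The 3 genes with the profile nearest to each member were taken from 11819 candidates, by the root mean square (RMS) difference of log2 counts over the 15 libraries after centring each gene. The nearest of all was Apbb3 to Pkm, at 0.07, against a spread of 0.61 for Pkm itself, followed by Calm3, a calmodulin, at 0.08 and Pitpna at 0.09. Pfkm was nearest to Acss2, an acetyl-CoA synthetase, at 0.08, then Pnkd at 0.09 and Slc25a12, the mitochondrial aspartate-glutamate carrier of neurons, at 0.10. Hk1 was nearest to Lyrm9 (0.09), Esyt1 and Dgkq (each 0.10), and Slc2a3 to Snap91, a synaptic vesicle coat protein (0.11), Zfp385b and Ampd3 (each 0.12). These are distances, and no test goes with them.

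Pfkp was nearest to Gas6 (0.11), Cdr2l and Rtn2, and Ldhb to Gng3, a neuronal G protein subunit (0.10), Tmx2 (0.10) and Nipal2 (0.11). Among the members that fell, Ldha was nearest to Gpx8 and Erp29, both proteins of the endoplasmic reticulum, and to the ribosomal protein gene Rpl18 (0.10, 0.10 and 0.11). Hk2 was nearest to Tpm1 (0.14), Natd1 and Slc39a1 (each 0.15), against a spread of 0.40 of its own. Slc16a7 was nearest to Cenpt and Dsn1, both centromere proteins, at 0.14 and 0.16, and to Mpped2 at 0.17. Slc16a1 was nearest to Ddr1 (0.11), Eps15 (0.12) and Lss (0.14), against a spread of 0.21 of its own.

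Of 25 other glycolytic enzyme genes tested, 13 rose and 5 fell from P3 to adult, with 68.7% of all genes called in that comparison (34.4% higher and 34.3% lower), which is the background for every list count from P3 to adult given here. The median log2 change of these enzyme genes was 0.51, against -0.01 for all genes. This list and the others below were also chosen with earlier results known, so their counts are descriptions only. Eno2, the neuronal enolase, rose 6.23-fold (limma adjusted p = 1.57e-10), Ldhd, a mitochondrial D-lactate dehydrogenase, rose 5.71-fold (3.49e-10), and the aldolase Aldoa rose 3.31-fold (2.13e-10). The genes that fell included the hexokinase Hk3, by 5.89-fold, and Adpgk, which phosphorylates glucose with ADP, by 1.56-fold. From P7 to P14 the same list counted 13 that rose and 5 that fell, where 48.1% of all genes were called, and from P14 to P21 1 rose, Ldhd, and 0 fell. Of 18 other glucose and monocarboxylate transporter genes tested, 6 rose and 4 fell from P3 to adult (median -0.08). Slc16a11 rose 8.56-fold and Slc2a6 2.86-fold, whereas Slc16a10, an aromatic amino acid transporter, fell 4.02-fold and Slc2a10 fell 2.23-fold.

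Downstream of Pkm and Ldhb, 12 of 16 genes of pyruvate entry into mitochondria and 18 of 23 of the citrate cycle rose from P3 to adult, with 34.4% of all genes called higher. Of the pyruvate entry genes 1 fell, and their median log2 change was 0.58. Pdp1, the phosphatase that switches pyruvate dehydrogenase on, rose 4.13-fold, pyruvate carboxylase (Pcx) rose 4.01-fold, and Dlat, a subunit of pyruvate dehydrogenase, rose 1.91-fold. The gene that fell was Pdk1, a kinase that switches the complex off, by 1.29-fold (limma adjusted p = 0.00986). Other kinases of the complex did not share that course. Pdk2 rose from P21 to adult (log2 change 0.73 ± 0.09), and Pdk4 fell from P3 to P7 (-0.81 ± 0.19) and rose from P7 to P14 (1.24 ± 0.19). Of the citrate cycle genes and its shuttles 3 fell, and the median was 0.67. Those that rose included Got1, which rose 8.73-fold, Slc25a12, which rose 3.38-fold, and Sdha, which rose 2.35-fold. Those that fell were Idh2, by 2.24-fold, Slc25a13, by 1.90-fold, and Suclg2, by 1.81-fold. Slc25a12 and Slc25a13 encode the paired aspartate-glutamate carriers and moved in opposite directions, as the hexokinase and lactate dehydrogenase pairs did.

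**Figure D4:**
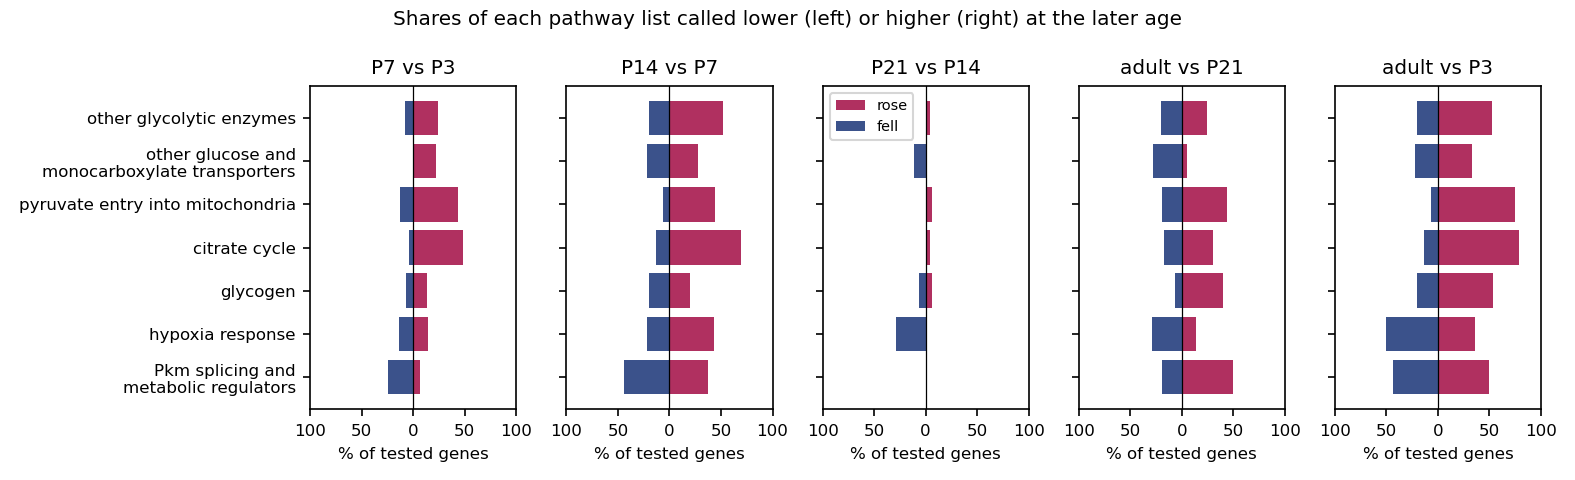
Percent of the tested genes of each of 7 pathway lists called lower (left, blue) or higher (right, red) at the later age, 1 panel per comparison. From P3 to adult the citrate cycle list holds 18 of 23 genes that rose, and in the comparison of P21 with P14 no list holds more than 1 gene that rose.

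Of 15 glycogen genes 8 rose and 3 fell from P3 to adult (median 0.46), with 68.7% of all genes called. The phosphorylase Pygl rose 3.78-fold and Pgm1, a phosphoglucomutase, fell 2.36-fold. Of 14 genes of the hypoxia response 5 rose and 7 fell (median -0.34), with 34.3% of all genes called lower. Hif1a, the oxygen-regulated factor, fell 2.16-fold (log2 change -1.11 ± 0.10, limma adjusted p = 1.94e-07), Car9 fell 25.5-fold and P4ha1 fell 2.31-fold, whereas Ndrg1 rose 5.08-fold, Egln3 rose 2.58-fold and Epas1 rose 2.35-fold. Car9 went from a mean of 260.3 ± 5.18 at P3 to 9.92 ± 4.55 in adult (± SD), so few reads set the size of its fold. Of 16 regulators of Pkm splicing and of metabolic transcription 8 rose and 7 fell, with 34.4% of all genes called higher and 34.3% lower. Ppargc1a, the coactivator of mitochondrial genes, rose 5.51-fold, and the nuclear receptors Esrrg and Esrra rose 4.99-fold and 3.57-fold. Myc, an activator of glycolytic genes in growing cells, fell 4.59-fold.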

How the data were processed

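RNA was sequenced from 15 auditory nerve libraries, 3 per age. Per the submitters' processing notes, Partek, TopHat2 and DESeq2 were used with build mm10. Annotation, strand use and filters are not given in the sources used here. The signal the authors deposited is each gene's read count scaled by a library's size factor: in every library the values are multiples of 1 step, to within 0.1 of a whole read for 100% of 147495 values below 1000 reads, and dividing by that step gave the recovered reads. Depth and floor stand in the report. The 10 members and all gene and marker lists were chosen with earlier results of these data known.

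The design had named limma for normalized values, and limma (3.58.1, R 4.3.3; trend, robust) was fitted to log2(value + 1) over all 15 libraries, for 16723 genes with at least 10 in at least 3 libraries, with 10 residual degrees of freedom, two-sided. Named genes are the members, the 6 partners, up to 3 called genes a direction from each list by adjusted p, and 3 nearest profiles a member, the latter with at least 10 CPM (from the normalized counts) in the highest age and no predicted symbol. Ends are printed 1 below the table's stop. Per-kilobase values use the longest principal transcript of GENCODE M21 that starts and ends within 1000 bases of the table's interval. Alternatives were quantile normalization, TMM scaling, a filter of 50 or none, a pseudocount of 0.1 or 10, only both ages, edgeR (4.0.16) and DESeq2 (1.42.0) on recovered reads, each library left out, and a replicate block. Leaving out the 4 libraries low in Eif2s3y, and the 12 libraries without P7 with no block, were added after seeing the data. The code was tested on simulated data. Slc5a12 was not analysed here, and Ldhc and Slc5a8 were below the filter. Some genes that the naming rule allows are left out of the text.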

Additional observations from a re-analysis of the deposited data

How the results depend on the processing

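Of 36 called changes of members, counting the joint test, 31 were called under every alternative run and 5 were lost under at least 1: Slc16a1 from P3 to P7 and jointly, and Hk2, Pfkp and Slc2a3 from P21 to adult. Hk2 and Slc2a3 were lost only without the 4 Eif2s3y-low libraries, which leaves P21 with 1 library. No called change reversed. Of 24 changes not called, 10 were called under at least 1 alternative. The number of genes called from P3 to P7, 4703, ranged from 3075 (without P7 replicate 5) to 6352 with 1 library left out, and was 3111 without P3 replicate 3. The number of members called there ranged from 2 to 5, with 5 without P21 replicate 2. From P14 to P21 the 1553 genes called became 147 with only both ages in the fit, 2519 in DESeq2, 760 without the 4 Eif2s3y-low libraries and 632 to 1968 with 1 library left out. Members called there, 0, became 1 under quantile normalization (Pkm), 1 without the 4 libraries (Ldha), and 0 to 1 with 1 library left out. From P21 to adult the 8266 genes called became 5321 with only both ages and 3989 without the 4 libraries, and the 6 members called became 3 without them, which leaves P21 with 1 library, assumed to vary like the other ages. Pfkm from P21 to adult was 0.27 and Slc2a3 0.28 under quantile normalization, both still called. Reversals occurred among changes not called. Without the 4 libraries, Hk2 and Slc16a1 from P7 to P14 were 0.057 and 0.017, and Hk1 from P14 to P21 was 0.029. Under quantile normalization Slc16a1 was -0.135 from P21 to adult and -0.014 from P3 to adult. Leaving out 1 library gave ranges across 0 from P7 to P14 for Hk2 (-0.141 to 0.057, highest without P14 replicate 1) and Slc16a1 (-0.234 to 0.017, highest without P14 replicate 1). From P14 to P21 such ranges held for Hk1 (-0.188 to 0.077, highest without P21 replicate 2), Ldha (-0.348 to 0.028, highest without P21 replicate 3), Pfkm (-0.06 to 0.098, lowest without P21 replicate 3) and Slc16a7 (-0.263 to 0.03, highest without P14 replicate 3), and from P21 to adult for Slc16a1 (-0.042 to 0.095, lowest without P21 replicate 3). The cause of these moves was not tested. Replicate numbers did not pair the libraries: deviations of 18 same-numbered pairs correlated between -0.23 and 0.32, those of 36 other pairs between -0.37 and 0.39. With the replicate block on the 12 libraries of P3, P14, P21 and adult, 650 genes were called from P14 to P21 against 988 in the same libraries with no block, and members called stayed at 0 there, 6 from P21 to adult and 9 from P3 to adult. P7 libraries carry other numbers, so no block was fitted to its comparisons. Depth limits no member value, since all were above the floor of 3 reads.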
